A study of Mus musculus with 2 samples.

Results

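The 10 genes described here encode ligands and receptors of the tumour necrosis factor (TNF) superfamily that are known for keeping up high endothelial venules (HEVs) and B cells in lymph nodes (LNs). They were chosen by symbol and are 10 of the 22620 genes in the count files, and all 10 were found in both libraries. The ligands are Lta, Ltb, Tnfsf14 (LIGHT) and Tnfsf13b (BAFF). The receptors are Ltbr, Tnfrsf14 (HVEM), Tnfrsf13c (the BAFF receptor), Tnfrsf1a, Tnfrsf1b and Tnfrsf12a (Fn14).

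Cells of primary tumours and of paired LNs were captured with the 10x Genomics system in 1 library per tissue, each pooled from 6 C57BL/6J mice. All mice carried EO771-HEVM3 tumours, and no group without a tumour or with another tumour was analysed here. EO771 is a mouse breast cancer cell line, and HEVM3 is a derivative selected in vivo over repeated rounds for spread through LN vessels, so the cancer cells of both libraries come from 1 selected line. The methods of the study give the animals as females a few weeks old, and tumours and LNs were dissociated with different enzymes and for different times.

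Lymphotoxin alpha forms a secreted homotrimer that binds the TNF receptors, and together with lymphotoxin beta it forms a membrane-bound heterotrimer that binds the lymphotoxin beta receptor. In LNs, lymphocytes and dendritic cells (DCs) are the known sources of the heterotrimer, and its receptor on stromal and endothelial cells signals through NF-kB-inducing kinase to keep HEVs in their mature state. LIGHT binds both the lymphotoxin beta receptor and HVEM, and BAFF supports B cell survival through the BAFF receptor.

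The libraries held 12427 primary tumour cells and 11617 LN cells, with medians of 9161 and 2630 unique molecular identifiers (UMIs) per cell, and shared 47 barcodes. After filtering, 8756 and 9689 cells were left. They were grouped into classes named from marker genes, and each class name means cells like that type. Levels are CPM, with the UMIs of a gene and of all genes summed over the cells of a class, each followed by its exact 95% Poisson interval, which covers counting error only. With 1 library per tissue there is no replicate and no test, and the tissue cannot be told apart from the library, the digestion or the depth. Classes with at least 20 cells in a library gave 20 pairs of class and library. The LN cells included 59 HEC-like endothelial cells, which carried the high endothelial cell (HEC) genes Glycam1, Chst4 and Fut7. The study's methods also describe blood endothelial cells sorted from LNs for sequencing in parallel, and whether the LN library holds any of them is not given in the sources used here. The number and depth of LN endothelial cells may depend on this. No primary tumour cell was called HEC-like, but the call was made for whole endothelial subclusters, so single cells of this kind could not be found. A subcluster (e1) of 6 primary tumour and 6 LN cells carried Glycam1, Chst4 and Fut7 at 304, 99.1 and 119 CPM. It was left unnamed because its leading genes included the cancer cell markers Krt7 and Krt8 and no endothelial marker. The primary tumour library held 45 endothelial and 9 B cells. LN fibroblasts numbered 4, so LN stroma other than endothelium was not measured here. Pecam1 and Cdh5, which define endothelial cells, were at 128 and 157 CPM in the HEC-like cells and at 1095 and 1250 CPM in primary tumour endothelial cells.

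**Figure D1:**
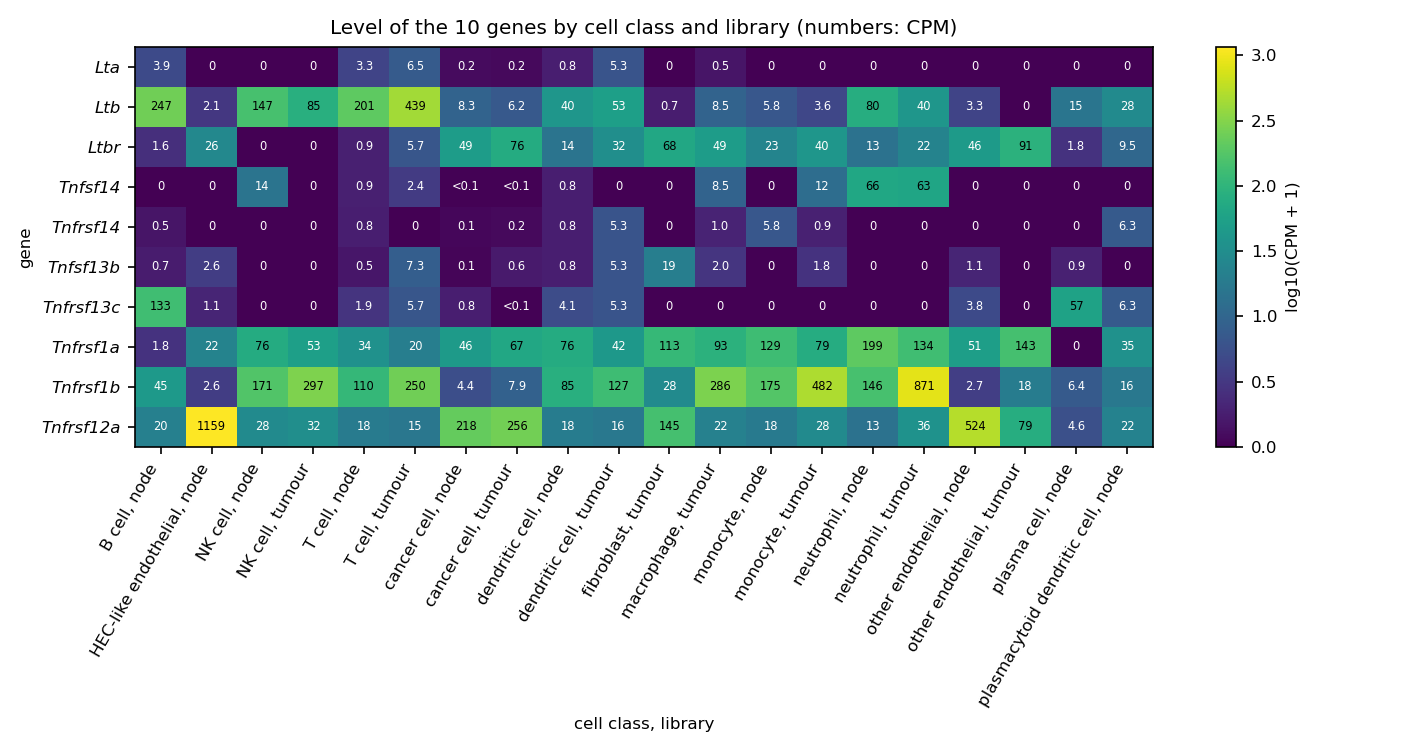
CPM of the 10 genes (rows) in the 20 pairs of class and library (columns), coloured on a log10(CPM + 1) scale and printed in each cell. Ltb was high in T, B and NK cells, Tnfrsf1b in myeloid, NK and T cells, Tnfrsf13c in B cells, and Tnfrsf12a in LN endothelial, cancer and fibroblast cells.

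Lta and Ltb lie close to each other in the TNF locus of mouse chromosome 17. Ltb is at chr17:35194439-35196320 on the plus strand and Lta at chr17:35203165-35205351 on the minus strand (GRCm38, GENCODE M21), with Tnf between them. Their promoters, from 250 bases before to 50 after the start in RefSeq (GRCm38.p6), are shown because these neighbours were counted at very different depths here. Capitals mark matches, on either strand, to a loose form of the NF-kB motif, GGG followed by any 5 bases and CC.
Ltb: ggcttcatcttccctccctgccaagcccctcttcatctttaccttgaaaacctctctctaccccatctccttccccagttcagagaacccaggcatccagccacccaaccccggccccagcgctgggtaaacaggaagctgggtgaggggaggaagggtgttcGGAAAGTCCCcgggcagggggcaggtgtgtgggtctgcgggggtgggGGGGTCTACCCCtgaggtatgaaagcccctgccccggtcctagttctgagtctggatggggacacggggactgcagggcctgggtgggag
Lta: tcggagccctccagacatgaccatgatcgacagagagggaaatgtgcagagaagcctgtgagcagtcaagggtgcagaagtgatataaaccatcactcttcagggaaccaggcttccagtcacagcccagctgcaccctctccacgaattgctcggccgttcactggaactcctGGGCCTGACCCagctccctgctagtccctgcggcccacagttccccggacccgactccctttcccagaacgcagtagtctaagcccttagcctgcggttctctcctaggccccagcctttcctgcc
The window of Ltb, chr17:35194257-35194556 on the plus strand, held 4 matches, of which 3 overlap. The window of Lta, chr17:35205302-35205601 on the minus strand, held 2 overlapping matches. Of 27025 promoters of 300 bases 50.4% held this motif, as did 9 of the 10 genes, so a match sets none of them apart.

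Ltb, the membrane-anchoring subunit of the lymphotoxin heterotrimer, had its highest levels in lymphocytes. Its level was 439 CPM (402 to 477) in primary tumour T cells, from 539 UMIs in 571 cells. In the LN it was 247 CPM (238 to 257) in B cells, from 2479 UMIs, and 201 CPM (194 to 209) in T cells, from 2564 UMIs. These levels formed an order in which each neighbour lay apart from the next by its counting interval. NK cells followed with 147 CPM (99.8 to 208) in the LN and 85.0 CPM (36.7 to 167) in the primary tumour, and the interval of LN NK cells overlapped that of LN T cells.

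Lower Ltb levels were measured in other immune cells. LN neutrophils were at 79.7 CPM from 6 UMIs and primary tumour neutrophils at 40.2 CPM from 9 UMIs. DCs, which carry lymphotoxin to HEVs in the LN, were at 39.8 CPM (29.3 to 52.7) in the LN and 53.0 CPM (25.4 to 97.5) in the primary tumour. LN DCs with a UMI of Fscn1, a gene of mature migratory DCs, were at 51.4 CPM (34.7 to 73.4), and those without one at 28.9 CPM (17.1 to 45.7), so these intervals overlapped. Plasma cells were at 14.6 CPM (8.37 to 23.8). In the HEC-like cells Ltb was at 2.11 CPM from 4 UMIs, while 0 UMIs in primary tumour endothelial cells allow a level of up to 9.12 CPM. Cancer cells were at 6.16 CPM (5.67 to 6.67) in the primary tumour, and since they were 6118 cells they held 49.8% of the Ltb UMIs of the kept primary tumour cells.

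To compare the share of cells with an Ltb UMI at equal depth, 1000 UMIs were kept of each cell, and cells with fewer were not used. It was 34.4% (exact Clopper-Pearson interval 30.0 to 39.1) in primary tumour T cells, with 129 cells not used. It was 21.5% (20.3 to 22.7) in LN B cells and 17.4% (16.1 to 18.6) in LN T cells, with 69 and 23 not used. At full depth they were 48.5%, 35.2% and 39.0%, the median cell having 1559, 1801 and 2990.5 UMIs. Primary tumour fibroblasts, which should lack Ltb, had a share of 0.0155% at equal depth and 0.478% at full depth, with a median of 5467 UMIs.

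Among LN T cells, Ltb differed between subsets gated on UMIs of lineage genes. These gates left out 1543 of the 3688 cells. It was 382 CPM (341 to 426) in 166 cells with Foxp3, the factor of regulatory T cells. It was 250 CPM (228 to 274) in 591 cells with Cd4 but neither Foxp3 nor Cd8, and 156 CPM (145 to 166) in 1289 cells with Cd8 but neither Cd4 nor Foxp3. The 99 cells with Trdc, a gamma-delta T cell receptor gene, and none of the others were at 348 CPM (283 to 422). The Foxp3 cells were thus higher than the Cd8 cells by 1.30 on the log2 scale (1.11 to 1.48) and than the Cd4 cells by 0.61 (0.40 to 0.82), while the interval of their difference from Trdc cells held 0.

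In the primary tumour Ltb was at 566 CPM (382 to 808) in 29 Foxp3 cells, 422 CPM (379 to 468) in 339 Cd8 cells and 338 CPM (245 to 453) in 50 Cd4 cells. Of the 571 T cells there, 149 were outside the gates. Foxp3 and Cd8 cells of the primary tumour differed by 0.45 (-0.17 to 0.96), an interval that held 0. Foxp3 cells were higher than Cd4 cells by 0.75 (0.03 to 1.45). The gap between tissues was widest in Cd8 cells, with a log2 ratio of LN over primary tumour of -1.44 (-1.62 to -1.26). In Cd4 and Foxp3 cells it was -0.45 (-0.88 to 0.05) and -0.59 (-1.11 to 0.02), and both intervals held 0.

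**Figure D2:**
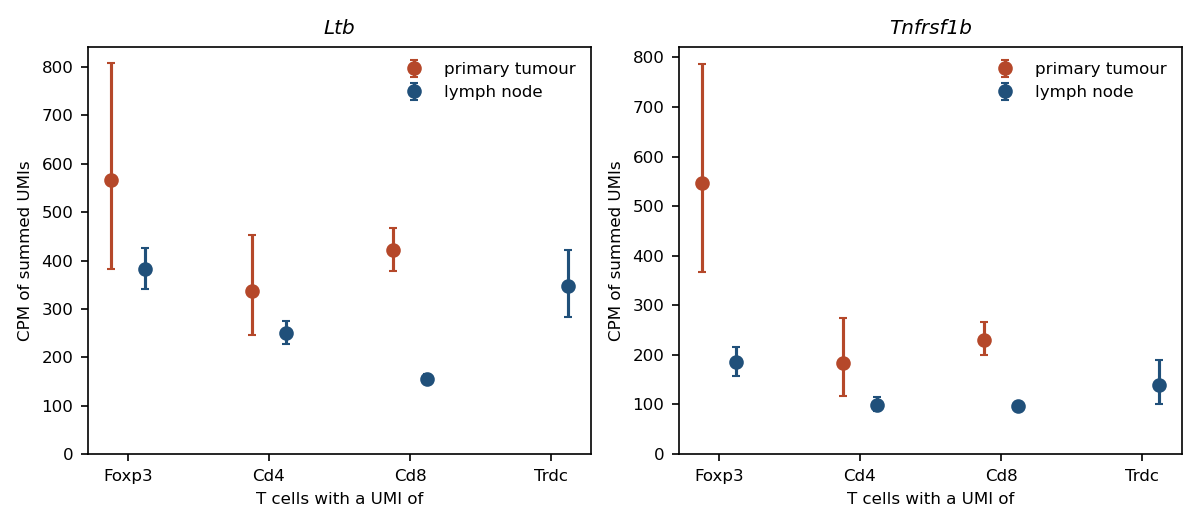
CPM of Ltb and Tnfrsf1b (vertical axes, starting at 0) in T cells gated on a UMI of Foxp3, Cd4, Cd8 or Trdc (horizontal axis), with points for each library and bars for the exact Poisson interval. Ltb in Cd8 cells was 422 CPM in the primary tumour and 156 CPM in the LN, and Trdc cells of the primary tumour were too few to plot.

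Lta, the secreted lymphotoxin subunit, was close to the detection limit. It had 30 UMIs in the kept primary tumour cells, 19 of them in cancer cells at 0.196 CPM, and 88 in the kept LN cells. The highest level was 6.51 CPM (2.81 to 12.8) in primary tumour T cells, from 8 UMIs. LN B cells were at 3.89 CPM (2.77 to 5.32) from 39 UMIs, and LN T cells at 3.30 CPM (2.38 to 4.46) from 42 UMIs. In the order of Lta levels, neighbouring pairs were in no case apart by their counting intervals, and 12 of the 20 pairs had 0 UMIs. Of the 39 LN T cells with a Lta UMI, 23 also had one of Ltb, as did 21 of 38 LN B cells and 5 of 8 primary tumour T cells. A cell that is sequenced deeper is more likely to show both.

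Tnfsf14, the gene of LIGHT, was highest in neutrophils. It was at 66.4 CPM (21.6 to 155) in LN neutrophils, from 5 UMIs, and at 62.6 CPM (34.2 to 105) in primary tumour neutrophils, from 14 UMIs. Of the 5 LN UMIs 3 came from 1 cell, and without it the LN level was 27.3 CPM. LN NK cells followed at 14.2 CPM from 3 UMIs, primary tumour monocytes were at 11.5 CPM (6.14 to 19.7) and macrophages at 8.51 CPM (4.96 to 13.6). LN T cells were at 0.864 CPM from 11 UMIs, and LN B cells and both LN endothelial groups had 0 UMIs.

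Tnfsf13b, the gene of BAFF, was highest in primary tumour fibroblasts at 19.4 CPM (12.7 to 28.5), from 26 UMIs in 209 cells. The next pair, primary tumour T cells at 7.32 CPM (3.35 to 13.9), lay apart from it. LN B cells were at 0.699 CPM from 7 UMIs and LN T cells at 0.550 CPM from 7 UMIs. The 3 fibroblast clusters were at 21.4, 23.5 and 7.87 CPM, from 15, 9 and 2 UMIs. The class carried Rgs5, a pericyte gene, at 1190 CPM, and its largest cluster (108 cells) had Rgs5 among its leading genes. With 4 LN fibroblasts, the LN stroma could not be compared.

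Ltbr, the lymphotoxin beta receptor, was low in T and B cells and higher in stromal, cancer and myeloid cells. It is at chr6:125306571-125313885, and 35476 bases separate it from Tnfrsf1a. Primary tumour endothelial cells had the most, with 91.2 CPM (61.6 to 130), followed by primary tumour cancer cells at 75.7 CPM (74.0 to 77.4) and fibroblasts at 68.0 CPM (54.8 to 83.5), and these intervals overlapped. Macrophages of the primary tumour were at 49.0 CPM, LN cancer cells at 48.8 CPM (45.8 to 51.9) and other LN endothelial cells at 46.2 CPM (36.8 to 57.2). The HEC-like cells were at 25.9 CPM (19.1 to 34.2), from 49 UMIs in 28 of 59 cells. LN T and B cells were at 0.864 and 1.60 CPM, while 0 UMIs in NK cells allow up to 14.2 CPM in the LN and 31.9 CPM in the primary tumour.

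Tnfrsf14 was too rarely counted to order its levels. It had 26 UMIs in primary tumour cells and 22 in LN cells, and its highest level, 6.31 CPM (0.764 to 22.8) in LN plasmacytoid DCs, rested on 2 UMIs.

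Tnfrsf13c, the BAFF receptor, was found largely in LN B lineage cells, with 91.3% of its UMIs among kept LN cells in B cells. B cells were at 133 CPM (126 to 140) from 1328 UMIs, and plasma cells at 56.8 CPM (43.5 to 72.8) from 62 UMIs. The next level, in plasmacytoid DCs, was 6.31 CPM from 2 UMIs. LN T cells were at 1.89 CPM (1.21 to 2.81), and at equal depth 12.2% of B cells (11.2 to 13.1) but 0.178% of T cells (0.0690 to 0.376) had a UMI. At full depth 21.8% and 0.569% of cells had one. Among B cell clusters with at least 20 cells, the level ran from 78.0 to 254 CPM. The primary tumour held 9 B cells, so the receptor's tumour level in B cells was not measured.

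Tnfrsf1a, a receptor for TNF and the lymphotoxin alpha trimer, was spread over most classes, 18 of the 20 pairs being at 10 CPM or more. LN neutrophils were at 199 CPM (111 to 329), primary tumour endothelial cells at 143 CPM (105 to 190) and primary tumour neutrophils at 134 CPM (90.4 to 191), with overlapping intervals. Cancer cells were at 67.2 CPM (65.6 to 68.9) in the primary tumour and 46.4 CPM (43.5 to 49.4) in the LN. LN T cells were at 34.4 CPM (31.3 to 37.8), while LN B cells were at 1.80 CPM (1.06 to 2.84).

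Tnfrsf1b, the second TNF receptor, was highest in myeloid cells of the primary tumour. Neutrophils there were at 871 CPM (753 to 1003) and monocytes at 482 CPM (442 to 524), apart from each other and from the next level, NK cells at 297 CPM (198 to 430). Macrophages were at 286 CPM (263 to 310) and primary tumour T cells at 250 CPM (223 to 279). In the LN the levels were 175 CPM in monocytes, 171 CPM in NK cells, 146 CPM in neutrophils and 110 CPM (104 to 116) in T cells, and LN B cells were at 45.0 CPM (41.0 to 49.4). LN endothelial cells were at 2.64 CPM (HEC-like) and 2.75 CPM (other), from 5 UMIs each.

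Foxp3 cells carried more Tnfrsf1b than Cd4 or Cd8 cells of the same library. In the primary tumour they were at 547 CPM (366 to 786) against 231 CPM in Cd8 cells, a log2 ratio of 1.27 (0.63 to 1.81). In the LN they were at 185 CPM (157 to 216) against 97.2 CPM in Cd8 cells, a log2 ratio of 0.93 (0.66 to 1.19). Over LN Trdc cells, at 140 CPM, the log2 ratio was 0.39 (-0.10 to 0.94), an interval that held 0.

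Tnfrsf12a, the receptor for TWEAK, was highest in LN endothelium. The HEC-like cells were at 1159 CPM (1111 to 1209), from 2195 UMIs with a UMI in 59 of 59 cells, and other LN endothelial cells at 524 CPM (492 to 559). Cancer cells followed at 256 CPM (253 to 259) in the primary tumour and 218 CPM (212 to 225) in the LN, then primary tumour fibroblasts at 145 CPM (125 to 167) and endothelial cells at 79.1 CPM (51.6 to 116). Each of these was apart from the next. At equal depth, 60.4% of HEC-like cells (46.9 to 72.9), 21.4% of primary tumour cancer cells (20.3 to 22.4) and 0.490% of plasma cells had a UMI. The median cell had 31965, 14062 and 11406 UMIs.

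Within the LN endothelium Tnfrsf12a varied between subclusters. The HEC-like subclusters were at 1022 CPM (952 to 1097) in 24 cells and 1251 CPM (1187 to 1318) in 35 cells. A subcluster of 40 other endothelial cells (e5) with a similar median depth of 33768 UMIs was at 633 CPM (591 to 677). The subclusters e2 and e6, with medians of 5252.5 and 1985 UMIs over their LN cells, were at 255 CPM (200 to 322) and 216 CPM (146 to 306). Although counted with the other endothelial cells, e6 carried the HEC genes Glycam1, Chst4 and Fut7 at 779, 202 and 132 CPM, against 7.60, 10.6 and 4.56 CPM in e5. In e2 the immune gene Ptprc was at 106 CPM. The 3 subclusters of high depth were thus above the 2 of low depth, and the part of depth in this was not tested.

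**Figure D3:**
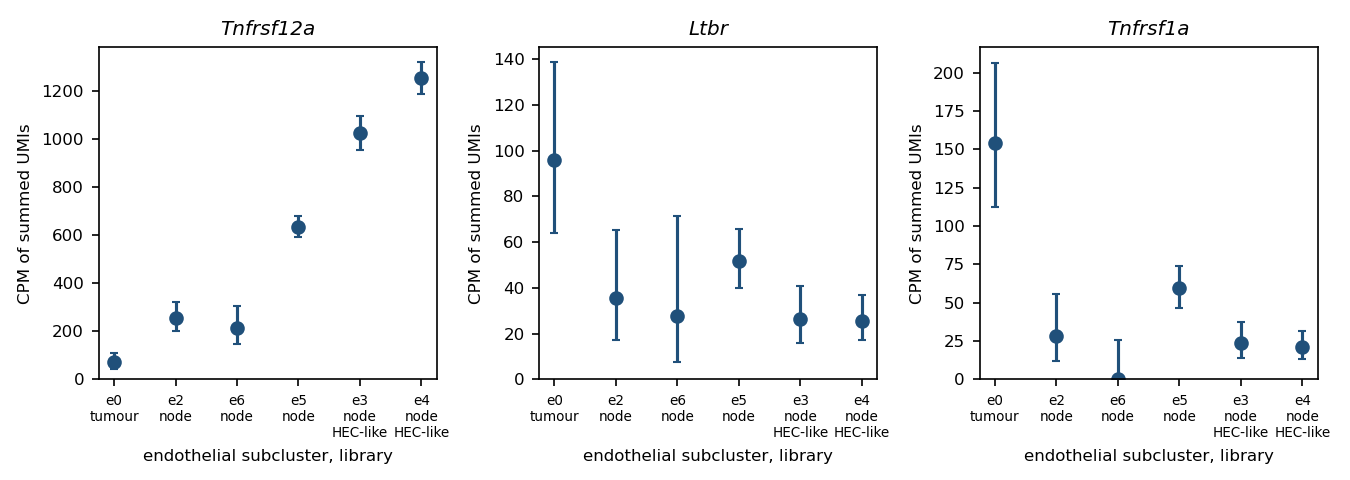
CPM of Tnfrsf12a, Ltbr and Tnfrsf1a (vertical axes, starting at 0) in the endothelial subclusters with at least 20 cells of a library, with exact Poisson intervals. Tnfrsf12a was highest in the HEC-like subclusters e3 and e4, at 1022 and 1251 CPM, while Ltbr and Tnfrsf1a were highest in the primary tumour subcluster e0.

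The HEC-like cells were then compared with the other endothelial cells of the LN, since this is where the lymphotoxin beta receptor is known to act. A member was called when it was at least 2-fold apart, among genes with at least 20 UMIs in the pair, and 3 of the 10 members could be measured. Tnfrsf12a was higher in the HEC-like cells, with a log2 ratio of 1.14 (1.03 to 1.26), against 9.55% of 8731 genes called higher. Tnfrsf1a was lower, at 22.2 against 50.6 CPM, with a log2 ratio of -1.18 (-1.75 to -0.65), against 10.8% of genes called lower. Ltbr was within 2-fold, with a log2 ratio of -0.83 (-1.37 to -0.31).

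Neither call held against every choice of cells. With only e5 as the comparison, an alternative chosen after seeing the data like those without e2, e5 or e6, the ratio of Tnfrsf12a was 0.87 (0.76 to 0.99), under 2-fold, and that of Tnfrsf1a was -1.41. Without e5 they were 2.26 (2.00 to 2.55) and -0.36 (-1.23 to 0.66), against a set of e2, e6 and 6 further cells with Glycam1 at 258 CPM. Both calls stood without e6, at 1.07 and -1.30, and without e2, at 1.01 and -1.29. With no upper limit on detected genes, 26 HEC-like and 248 other cells were found and the ratio of Tnfrsf12a was 0.10.

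Of 16 NF-kB genes fixed as a list, 14 could be measured in this comparison, and 2 were called higher and 1 lower, counts not far from the 9.55% and 10.8% of all genes. Relb, a partner of the non-canonical pathway that the lymphotoxin beta receptor engages, was at 50.2 against 19.2 CPM (log2 ratio 1.37, 0.81 to 1.99). Nfkbia, an inhibitor of NF-kB, was at 354 against 172 CPM (1.04, 0.85 to 1.24), and Tradd, an adaptor of Tnfrsf1a, at 5.28 against 18.7 CPM (-1.77, -3.01 to -0.77). The median over the 14 was 0.37, beside -0.02 over all 8731 genes. Of the 6 stromal genes not used to define the cells, 2 could be measured and 1 was called each way. Vcam1, an adhesion molecule, was at 107 against 52.2 CPM (1.03, 0.68 to 1.40), while the interval of Icam1 held 0. Tnfsf12, the gene of TWEAK, was at 6.34 against 18.1 CPM, with a log2 ratio of -1.48 (-2.61 to -0.53).

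Between the tissues, 7 classes had at least 20 cells in both libraries and gave 32 measurable pairs of member and class, of which 2 were called higher and 9 lower in the LN, beside 11.9% and 18.9% of the 46098 measurable pairs of any gene and class. Different clusters held most cells of several classes, so these are comparisons of the libraries' cells of a class and not of 1 cell state. Primary tumour T cells came mostly from 2 clusters led by Cxcr6 (300 and 199 cells), and LN T cells from clusters of 1627, 1227 and 575 cells. Of the LN cancer cells, 512 formed a cluster with 1 primary tumour cell. Of 493 primary tumour monocytes, 356 were in a cluster with 1 LN cell, led by genes that include Tnf. Of 31 LN neutrophils, 19 were in a cluster led by S100a9, S100a8 and Retnlg, and with Ngp, Camp and Ltf, that held 16 of the 275 primary tumour neutrophils.

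In T cells 6 members were measurable. Ltb was lower in the LN, with a log2 ratio of -1.12 (-1.26 to -0.99), and so was Tnfrsf1b, with -1.19 (-1.37 to -1.0). Lta, at -1.05 (-2.09 to 0.32), and Tnfrsf13c, at -1.66 (-2.85 to -0.14), were also called lower, on 8 and 7 primary tumour UMIs. These 4 of 6 stand beside 28.9% of 10276 genes called lower and 6.66% called higher, and the median of all genes was -0.47. Tnfrsf1a was 34.4 against 19.5 CPM, within 2-fold. Only 1 T cell cluster had at least 20 cells of each library (575 LN and 48 primary tumour cells, led by Tnfrsf4, Ctla4 and Icos). There Ltb was 296 against 256 CPM, a log2 ratio of 0.19 (-0.31 to 0.78), an interval that held 0. Tnfrsf1b there was 164 against 330 CPM, at -1.02 (-1.48 to -0.50). Tnfrsf1a there was 13.5 against 33.0 CPM, at -1.44 (-2.78 to 0.66) on 4 primary tumour UMIs, and this interval held 0 too. By gate, Tnfrsf1a was at 0.48 (-0.23 to 1.36) in Cd8 cells, 0.29 (-0.97 to 2.36) in Cd4 cells and -3.63 (-6.14 to -0.81) in Foxp3 cells, the last on 4 LN and 3 primary tumour UMIs.

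Tnfrsf1b was also lower in monocytes and neutrophils of the LN. In monocytes the log2 ratio was -1.44 (-2.04 to -0.93), 1 call of 4 measurable members, beside 14.2% of genes called lower and 14.1% called higher. Within the monocyte cluster held by both libraries it was 177 against 673 CPM, at -1.91 (-2.53 to -1.37). In neutrophils it was -2.52 (-3.60 to -1.71), 1 of 2 members, beside 27% called lower and 12.3% called higher. Median depth was 709 UMIs in primary tumour neutrophils and 1929 in LN neutrophils, and its part was not tested. In NK cells it was -0.81 (-1.55 to -0.04), within 2-fold, and none of 3 members was called, beside 9.69% of genes higher and 10.8% lower. In DCs 1 of 5 members was called lower, Ltbr at -1.25 (-2.59 to 0.46) on 6 primary tumour UMIs, beside 14.4% lower and 10.7% higher. Tnfrsf1b in DCs was at -0.61 (-1.24 to 0.12), within 2-fold with an interval that held 0.

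In endothelial cells other than the HEC-like ones, 3 members were measurable and moved in different directions. Tnfrsf12a was 524 CPM in the LN against 79.1 CPM in the primary tumour, a log2 ratio of 2.70 (2.17 to 3.35), beside 23.1% of 7909 genes called higher. Tnfrsf1a was 50.6 against 143 CPM, at -1.51 (-2.02 to -0.96), beside 26.4% called lower. Ltbr was 46.2 against 91.2 CPM, at -1.0 (-1.60 to -0.33), just within 2-fold. Primary tumour endothelial cells also carried Rgs5, a pericyte gene, at 736 CPM and Krt8, a keratin of the cancer cells, at 283 CPM, against 0 and 4.95 CPM in the LN. The endothelial genes Pecam1 and Cdh5 were at 161 and 168 CPM in these LN cells, far under the 1095 and 1250 CPM of the primary tumour cells. Of the 128 LN cells 127 came from a cluster with no primary tumour cell. The 40 LN cells of e5, with a median of 33767.5 UMIs, gave 833 of the 954 Tnfrsf12a UMIs. The median of the primary tumour cells was 5978 UMIs. Without e5 the LN levels of Tnfrsf12a, Tnfrsf1a and Ltbr were 241, 27.8 and 31.8 CPM. The part of these differences in the ratios of the members was not tested.

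In cancer cells 9 members were measurable, and 7 were within 2-fold. Ltbr was 48.8 CPM in the LN against 75.7 CPM, a log2 ratio of -0.63 (-0.73 to -0.54), and Tnfrsf12a 218 against 256 CPM, at -0.23 (-0.27 to -0.18). In the 2 cancer cell clusters with at least 20 cells of each library the ratio of Tnfrsf12a was 0.67 (0.56 to 0.78) and -0.92 (-1.44 to -0.47), so its direction differed between them. Ltbr was at -2.0 (-3.57 to -0.97) in the second of these, on 6 LN UMIs, and at -0.26 in the first, where Ltb was at 1.34 (0.32 to 2.16), against 0.44 over all cancer cells. Tnfsf12, the ligand of Tnfrsf12a, was 15 against 7.04 CPM. Tnfsf13b was called lower, at -2.42 (-5.80 to -0.81) on 2 LN UMIs, and Tnfrsf13c higher, at 4.57 (2.96 to 7.17) on 17 LN and 3 primary tumour UMIs, beside 10.4% of genes called lower and 9.01% higher. Cd79a, a B cell gene, was at 19.9 CPM in LN cancer cells. With the ratio of Tnfrsf13c to Cd79a found in LN B cells, that much Cd79a would come with 0.897 CPM of Tnfrsf13c, and 0.833 CPM was measured. Whether free RNA, doublets or the cancer cells themselves gave these UMIs was not tested.

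**Figure D4:**
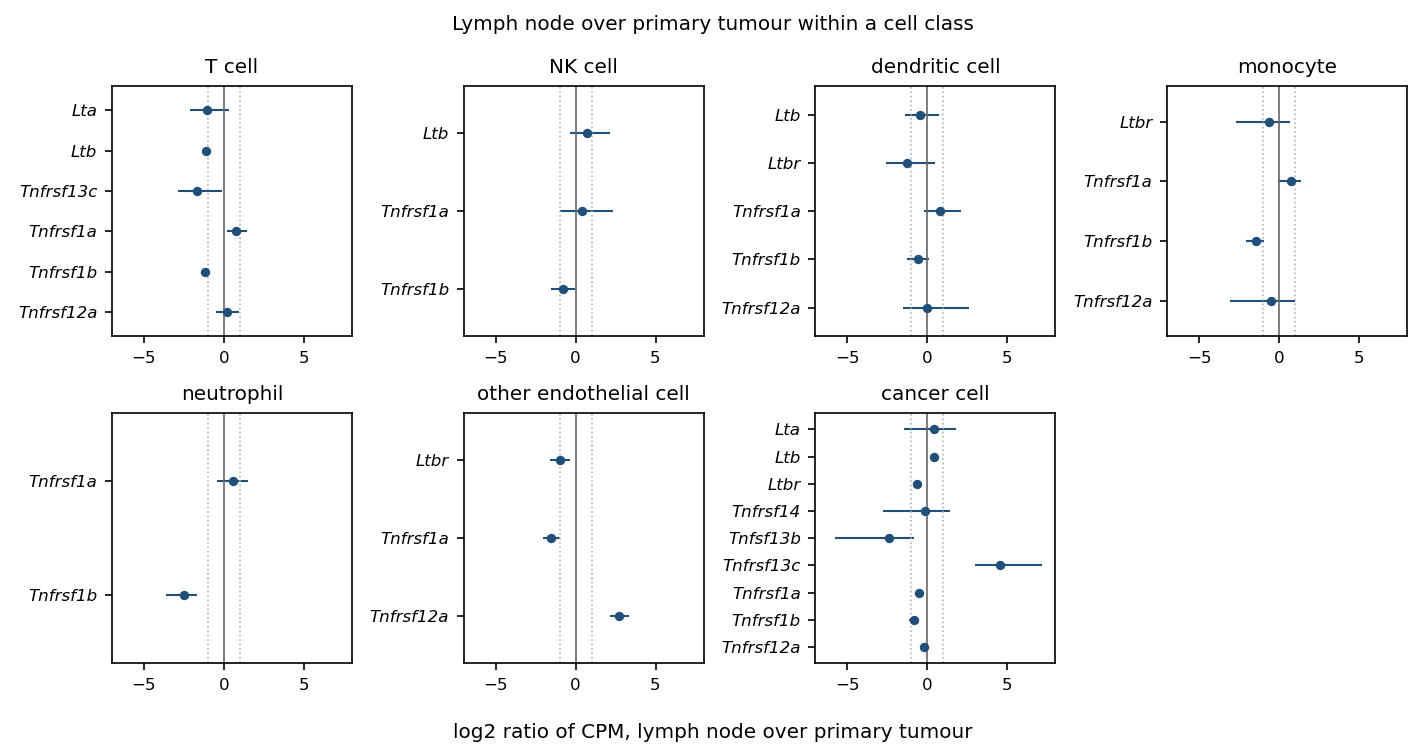
Log2 ratio of LN over primary tumour CPM (horizontal axis) for each measurable member within the 7 classes held by both libraries, with exact intervals for the split of the counts. Dotted lines mark 2-fold, and Tnfrsf1b lies left of 0 in all 6 of the classes where it could be measured.

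Other genes of the pathway, counted from fixed lists, gave the setting of these members in the tissues. Of the other ligands, 8 of 13 could be measured in T cells and 6 were called lower in the LN, with a median of -1.68 beside -0.47 over all genes. Tnfsf10 (TRAIL) was 6.28 against 88.7 CPM, Fasl 17.2 against 136 CPM and Tnf 6.83 against 31.7 CPM. Of the other receptors, 3 of 11 were called lower and none higher, close to the 28.9% of all genes called lower. Their median was 0.37, with 6 of 11 above 0, beside -0.47 over all genes. The lower ones included Tnfrsf9, the costimulatory receptor 4-1BB, at 74.0 against 485 CPM. Of 16 NF-kB genes in T cells 1 was called in each direction, beside 6.66% of all genes higher and 28.9% lower. The higher one was Map3k14, the gene of NF-kB-inducing kinase, at 80.0 against 23.6 CPM, and the lower one Traf2, an adaptor of the receptors, at 15 against 37.4 CPM.

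In monocytes and neutrophils Tnf, a further ligand of Tnfrsf1a and Tnfrsf1b, was lower in the LN, at 52.6 against 1153 CPM and 146 against 1975 CPM, in cells that came mostly from different clusters. In monocytes 2 of 13 measurable NF-kB genes were called higher and 3 lower, beside 14.1% and 14.2% of all genes, with a median of -0.48 beside 0.15 over all genes. In neutrophils 6 of 8 measurable NF-kB genes were called lower, beside 27% of all genes, with a median of -1.90 beside -0.26 over all genes, and Tnfaip3, an inhibitor of NF-kB, was 146 against 880 CPM. In endothelial cells 8 of 14 NF-kB genes were called lower and none higher, beside 26.4% and 23.1% of all genes, with a median of -1.25 beside -0.06, and Nfkbia was at 172 against 1250 CPM and Birc3, an inhibitor of apoptosis, was at 4.95 against 82.1 CPM. In cancer cells 2 of 16 were called lower, close to the 10.4% of all genes, Tnfaip3 at 14.3 against 33.7 CPM and Chuk, a kinase of the pathway, at 16.2 against 34.6 CPM. The digestion of the 2 tissues differed, and its part in these differences cannot be told apart from that of the tissue.

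RNA outside cells can place UMIs of a member in cells that do not express it. To show how far this could reach, each class's Krt8 was multiplied by the ratio of the member to Krt8 in the cancer cells of the same library, a comparison added after seeing the data. For primary tumour T cells this gave 16.9 CPM of Tnfrsf12a against 15.5 measured, and 5.01 CPM of Ltbr against 5.70 measured. For Tnfrsf1a it gave 4.45 against 19.5 measured. In the HEC-like cells it gave 5.08 CPM of Tnfrsf12a against 1159 measured and 1.13 CPM of Ltbr against 25.9 measured. Ltb in cancer cells was 6.16 CPM in the primary tumour, where the T cells' ratio to Cd3e gave 0.694 CPM. In the HEC-like cells it was 2.11 CPM, where the LN B cells' ratio to Cd79a gave 2.00 CPM. The part of free RNA in these levels was not tested.

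**Figure D5:**
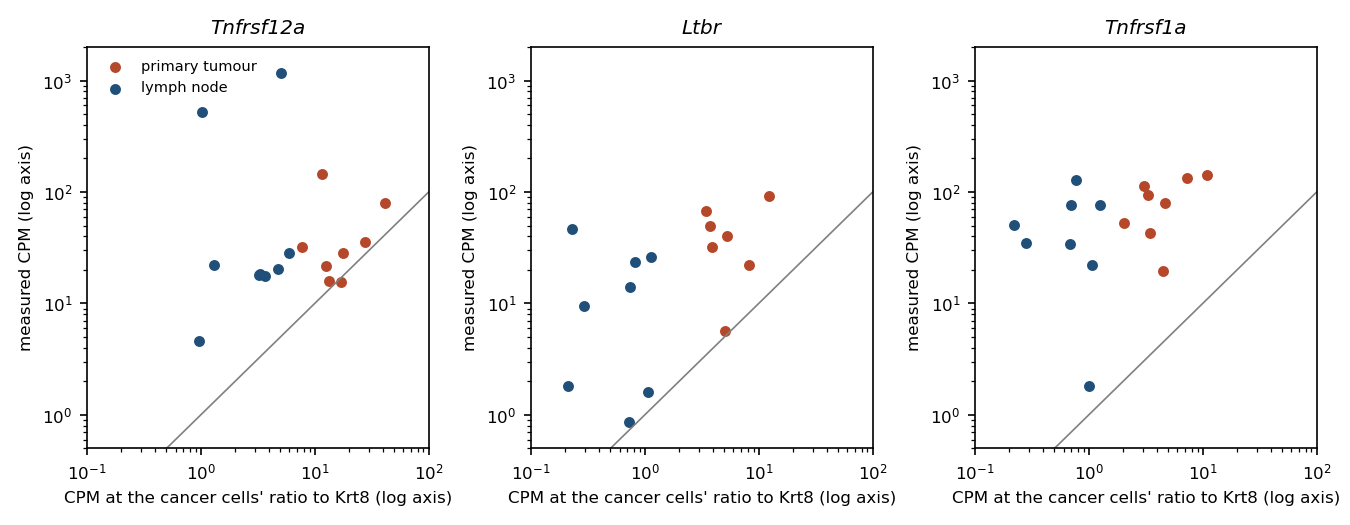
Measured CPM (vertical, log axis) against the CPM that each class's Krt8 would bring at the cancer cells' ratio (horizontal, log axis), for classes other than cancer cells with UMIs of both genes. Points on the line have the cancer cells' ratio. Tnfrsf12a and Ltbr of primary tumour T cells lie near it, at 15.5 and 5.70 CPM measured.

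The genes whose levels were most like those of each member were ranked by Pearson's r of log2(CPM + 10) over the 20 pairs, as a description, since pairs of 1 library share its depth and free RNA. For Ltb they were Rapgef6 (r = 0.91), Rhof (0.89) and Arhgap45 (0.89). For Ltbr they were Dock1 (0.91), Myadm (0.90) and Ctnnd1 (0.89), and for Tnfrsf12a Ankrd1 (0.95), Fst (0.94) and Meis2 (0.94). Tnfrsf13c was closest to Vpreb3 (0.96), Pou2af1 (0.93) and Rgs13 (0.92), and Tnfrsf1b to Btg1 (0.94), Lfng (0.92) and Rab8b (0.92). Tnfrsf1a had lower values, with Zfand3 (0.84), Txnrd1 (0.81) and Ifitm2 (0.80). Lta, at 116 UMIs, was closest to Zc3h12d (0.94), Trim14 (0.89) and Tspyl3 (0.84), and Tnfsf13b, at 130 UMIs, to Vgll3 (0.86), Obsl1 (0.86) and Bend6 (0.85). Tnfsf14 and Tnfrsf14 had too few UMIs to rank. Between members, r was highest for Lta and Ltb (0.69) and lowest for Tnfrsf13c and Tnfrsf1a (-0.82).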

How the data were processed

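The 2 libraries were pooled from 6 mice each, and no cell is assigned to a mouse, so each tissue counts as 1 sample and no test was run. The deposited values are raw UMI counts per gene and cell, which the authors made with Cell Ranger. The file headers give version 5.0.0, while the submitters' processing notes give version 2.1.1, with the genome GRCm38. Total counts were 173317475 in the primary tumour and 122207852 in the LN.

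A cell passed if more than 200 genes were detected in it, no more than 6000, and if mitochondrial UMIs made up 5% or less. The study's methods filtered doublets with DoubletFinder beside the same limits on cells, and since the deposited files hold cells outside those limits, doublets were called again here. Scrublet in scanpy 1.11.5 (expected rate 6%) removed 391 primary tumour doublets. In the LN its threshold marked 0 cells, and the 616 cells with scores in the top 6% were taken out instead. Clustering used counts scaled to 10000 a cell, 2000 variable genes per library, 30 components and 15 neighbours (Leiden, resolution 1.0, igraph 0.11.9), after regressing out cell cycle scores. The members and the pathway lists were left out of the variable genes. Mixed clusters and endothelial cells were clustered again.

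Clusters were named from listed markers, of which at least 3 had to be raised. How markers were scored, which lineages may share markers, and the rule that HEC-like subclusters carry Glycam1, Chst4 and Fut7 at 10-fold or more over the median of the other endothelial subclusters were set, and revised, after seeing the data. Cells left unnamed numbered 483 in the primary tumour and 70 in the LN. The members and gene lists were chosen with earlier results of these data known.

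Ratios were log2 ratios of CPM with 0.5 count added, for genes with at least 20 UMIs in the pair, and called at 2-fold. Intervals were exact at 95%. A count of 0 was given the limit of 3 counts. The ratio was tested on simulated data for T cells of the LN over the primary tumour, with 10276 genes. Of changed genes, 3-fold falls were called in 93.2% and 4-fold falls in 97.5%, 3-fold rises in 96.0% and 4-fold rises in 100%. Of unchanged genes 4.14% were called. The simulated counts were independent Poisson draws from 1 pooled profile. They cover counting error only, and not variation between cells, clusters or libraries. Named genes were all members, the list genes at least 2-fold apart with an interval that excluded 1 (up to 6 per list and comparison, of which examples are given), and the 3 genes most like each member with at least 100 UMIs. Alternatives changed the cell limits, doublets, clustering, count minimum, summary over cells and single cells. Scripts ran in Python 3.11.15 with scipy 1.17.1 and numpy 2.4.6, and figures were drawn with matplotlib 3.10.9.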

Additional observations from a re-analysis of the deposited data

Results flagged for a closer look

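For 4 members the ratio of LN over primary tumour went opposite ways in at least 2 classes, with the counting intervals on their own side of 0. The difference between the classes was not tested. Among classes whose intervals excluded 0, the widest gap between log2 ratios was 1.56 for Ltb and 6.24 for Tnfrsf13c, both cancer cells minus T cells. It was 2.30 for Tnfrsf1a (T cells minus other endothelial cells) and 2.93 for Tnfrsf12a (other endothelial cells minus cancer cells). The Tnfrsf13c gap rests on 17 LN and 3 primary tumour UMIs in cancer cells and 7 primary tumour UMIs in T cells. How far RNA of B cells added to the LN cancer cells' count was not tested. Within the T cell cluster held by both libraries the ratio was -1.44 (-2.78 to 0.66) for Tnfrsf1a and 0.19 (-0.31 to 0.78) for Ltb. Both intervals held 0.

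Clusters that could not be named were used in no comparison, and some of their members were above the limit that a count of 0 allows and at 100 CPM or more. Tnfrsf1b was at 767 CPM in a primary tumour cluster of 276 cells led by Spic, Ace and Lif, at 394 CPM in one led by Mmp12, Lpl and Gpnmb, and at 164 CPM in one of 36 cells led by S100a9, G0s2 and S100a8, where Tnfrsf12a was at 171 CPM. In a primary tumour cluster of 34 cells led by Col1a2, Col1a1 and Tagln, Tnfrsf12a was at 263 CPM and Tnfrsf1a at 101 CPM. Ltb was at 159 CPM in a LN cluster of 43 cells led by Ms4a1, Cd79a and Fcmr.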

How the results depend on the processing

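Of 386 values under alternative settings, 332 stayed within the counting interval of the value reported, or, for counts of calls, within 1.5 times. Main results were levels and shares of members with at least 100 UMIs, called ratios whose interval excluded 0, and counts of calls. Of their values 137 stayed, 34 moved and 1 changed sign, against 195 that stayed and 19 that moved among the rest. The mean of single-cell CPM in place of summed UMIs gave 527 CPM for Ltb in primary tumour T cells, and ratios of LN over primary tumour in T cells of -1.30 for Ltb and -1.45 for Tnfrsf1b. Ltb in T cells was at 0.19 (-0.31 to 0.78) within cluster 5, an alternative added after seeing the data. Unthinned shares of cells were 48.5% for Ltb in primary tumour T cells, 40.0% for Ltbr in primary tumour endothelial cells, 10.5% for Tnfsf13b in fibroblasts, 21.8% for Tnfrsf13c in B cells and 100% for Tnfrsf12a in HEC-like cells.

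Tnfrsf12a in HEC-like cells was 881 CPM with no upper limit on detected genes, 1038 CPM with doublets kept, 1228 CPM with each library clustered on its own and 1107 CPM without the cell with most of its UMIs. Its ratio of HEC-like over other LN endothelial cells was 1.88 with a mitochondrial limit of 10%, 0.10 with no upper limit on genes, 0.42 with doublets kept, 0.60 with each library on its own, 1.46 for the mean of single-cell CPM, 1.01 without e2, 2.26 without e5 and 0.87 with only e5, the last 3 added after seeing the data. The ratio of Tnfrsf1a there was -0.20 with a mitochondrial limit of 10%, -0.41 with each library on its own, -0.36 without e5 and -0.51 for the mean of single-cell CPM. In the other endothelial cells of the 2 tissues, Tnfrsf12a was at 2.13, 3.69 and 3.40 with a mitochondrial limit of 10%, no upper limit on genes and each library on its own, and Tnfrsf1a at -2.61 and -2.66 in the first and last of these. The endothelial groups hold other cells under each setting, and the cause was not tested further.

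The ratio of Tnfrsf13c in cancer cells was 2.90 with no upper limit on genes. Members called higher in the LN numbered 1 with at least 100 UMIs, and 4 with a mitochondrial limit of 10% and with no upper limit on genes, against 2. Those called lower numbered 5 with at least 100 UMIs, against 9. Monocytes of the LN numbered under 20 with a mitochondrial limit of 10%, with no upper limit on genes and at a resolution of 0.6, so no value was had there. Primary tumour DCs numbered under 20 with a mitochondrial limit of 10% and with doublets kept, so DCs had no ratio there. No paired analysis was possible because each group has 1 library. Depth limits Lta, Tnfsf14, Tnfrsf14 and Tnfsf13b, which had under 200 UMIs each.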
